A study of Danio rerio with 24 samples.

Results

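Replication-dependent histone genes supply the core histones that package newly copied DNA. They were followed here as 8 rows of a gene table of zebrafish larval intestine: 3 histone H3 rows (HIST2H3A, HIST2H3D and hist2h3c), 3 histone H4 rows (hist1h4l, HIST1H4K and HIST2H4A), the H2B row hist1h2ba and hist2h2l, which its name places among the H2 histones. These 8 of 30263 rows were picked by name from a table whose values at each age were already known, so their own values are described below with no test. HIST names in capitals are those of human genes, as the table gives them for zebrafish gene IDs.

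The RNA came from whole intestines dissected from larvae of the AB strain, all of genotype wild type with the transgene tg(cldn15la:GFP), a green fluorescent protein reporter driven by a gut epithelial promoter. No group lacked the transgene and no cells were sorted. Intestines were taken at 5, 7 and 9 days post fertilization (dpf), with 3 libraries per age and 10 intestines pooled in each, from larvae on a diet of dry feed, rotifers and brine shrimp. Total RNA was depleted of ribosomal RNA before sequencing, with no selection for poly(A) tails named in the protocol. The libraries are called below by age and number.

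Unlike other messenger RNAs, transcripts of replication-dependent histone genes end in a short stem-loop instead of a poly(A) tail. They are made mostly in S phase and are broken down when DNA synthesis stops. The genes lie in clusters of near-identical copies, and the stem-loop binding protein Slbp with the U7 small nuclear ribonucleoprotein directs the cut that forms their ends. In the gut, dividing progenitor cells at the base of the epithelium are the main place of DNA synthesis, whereas differentiated enterocytes have left the cell cycle.

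Library totals were between 7014333 and 14327144 reads. The intestinal epithelial genes cldn15la, fabp2 and vil1 had normalized read counts of at least 7375 in every library, so the labelled tissue was present in all 9. The summed level of 15 intestinal markers was higher at each later age, from 276908 to 415663 at 5 dpf, through 616316 to 743289 at 7 dpf, to 761354 to 1110390 at 9 dpf. Most of this sum was the apolipoprotein gene apobb.1 in every library, at 201442 to 283791 at 5 dpf and 530987 to 752399 at 9 dpf. The sum thus follows that gene more than the list as a whole. The epithelial marker cldn15la had 9486 to 16590 at 5 dpf and 14931 to 20595 at 9 dpf, with overlapping ages. Markers of 7 other sources (pancreas, liver, skeletal muscle, leukocytes and haematopoietic progenitors, neural progenitors and retina, germ cells, and odorant receptor genes) were also listed. Of these 8 marker sums, 0 had every 7 dpf library below all libraries of both other ages, the pattern described below for several histone rows. Among all genes tested 1.65% had it, so a 0 of 8 is near that share. The lowest mean was at 7 dpf in 1 of the 8 sums, that of the odorant receptor genes. Its means were 1408, 1114 and 1207 at 5, 7 and 9 dpf, with overlapping ages.

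The 8 histone rows held 4829 reads in all libraries together, with 195 to 976 per library and 8 to 179 for a row in a library. These are thin counts, and the 95% counting intervals (exact Poisson) are wide. For HIST2H3A in library 7dpf_1, which rests on 8 reads, the normalized read count of 6.90 has an interval of 2.98 to 13.6. Intervals cover counting error only. How reads that match several histone copies were counted, and whether strand was used, is not given in the sources used here, so the level of any one copy is uncertain. Levels are not compared between genes, since no lengths were used.

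Summed over the 8 rows, the histone messages stood at 657, 478 and 831 normalized read counts in the 5 dpf libraries, at 282, 204 and 456 at 7 dpf, and at 654, 664 and 527 at 9 dpf. All 3 libraries at 7 dpf were below all 6 at the other ages. The means were 655 ± 176 at 5 dpf, 314 ± 129 at 7 dpf and 615 ± 76.6 at 9 dpf (SD, n = 3 each). The sum at 5 dpf was 2.15 times that at 7 dpf as a ratio of geometric means, with a log2 change of -1.10 (SE 0.41). From 7 to 9 dpf the log2 change was 1.04 (SE 0.35), and from 5 to 9 dpf it was -0.06 (SE 0.25). In whole intestines, fewer cells making a transcript and less of it per cell cannot be told apart.

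**Figure D1:**
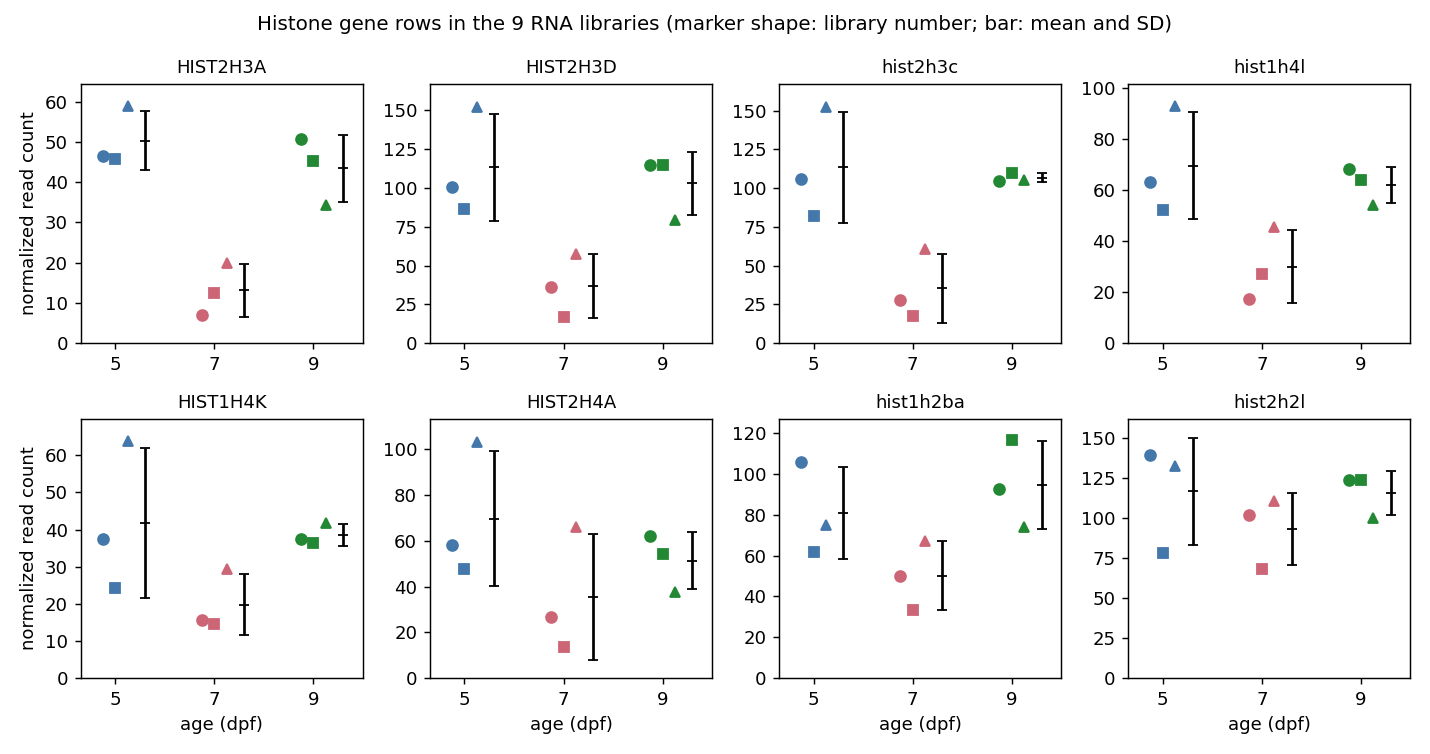
Normalized read count (vertical axes, starting at 0) of each of the 8 histone rows against age in dpf, with one point per library, shaped by library number, and the mean and SD over 3 libraries in black. The 7 dpf points lie lowest in most panels, from HIST2H3A with 6.90 to 19.8 at 7 dpf against 45.7 to 58.8 at 5 dpf, to hist2h2l, where the ages overlap.

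The H3 rows were lowest at 7 dpf by the widest margin. Histone H3 is the core histone whose tail carries the methylation marks that the same study mapped by chromatin immunoprecipitation. HIST2H3A (ENSDARG00000103819) had 46.4, 45.7 and 58.8 normalized read counts at 5 dpf, 6.90, 12.6 and 19.8 at 7 dpf, and 50.8, 45.1 and 34.4 at 9 dpf. Its 7 dpf libraries overlapped with neither of the other ages, and its mean at 5 dpf was 3.84 times that at 7 dpf.

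The row hist2h3c (ENSDARG00000094154) had 106, 82.1 and 152 at 5 dpf, 27.6, 17.8 and 60.5 at 7 dpf, and 105, 110 and 105 at 9 dpf. HIST2H3D (ENSDARG00000077587) had 101, 86.7 and 152 at 5 dpf, 36.2, 16.8 and 57.6 at 7 dpf, and 115, 115 and 79.3 at 9 dpf. For both rows the 7 dpf libraries stood below every other library. In library 5dpf_3 both rows held 179 reads, and they ran close together in the other libraries as well. The 3 H3 rows together had a mean of 277 ± 77.5 at 5 dpf, 85.3 ± 47.1 at 7 dpf and 253 ± 29.4 at 9 dpf.

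Among the H4 rows the margin was smaller. Histone H4 pairs with H3 in the tetramer at the centre of the nucleosome. The row hist1h4l (ENSDARG00000075366) had 63.2, 52.2 and 92.8 at 5 dpf, 17.3, 27.2 and 45.4 at 7 dpf, and 68.0, 63.8 and 54.2 at 9 dpf, again with no overlap between 7 dpf and the other ages.

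HIST1H4K (ENSDARG00000105376) had 37.4, 24.3 and 63.9 at 5 dpf, 15.5, 14.7 and 29.3 at 7 dpf, and 37.6, 36.3 and 41.7 at 9 dpf. Its 7 dpf libraries lay below all of those at 9 dpf, but 7dpf_3 was above 5dpf_2. HIST2H4A (ENSDARG00000101249) had 58.1, 47.6 and 103 at 5 dpf, 26.8, 13.6 and 66.1 at 7 dpf, and 61.9, 54.0 and 37.5 at 9 dpf. Here library 7dpf_3 exceeded libraries of both other ages, so the ages overlapped. The 3 H4 rows together had a mean of 181 ± 70.5 at 5 dpf, 85.3 ± 48.1 at 7 dpf and 152 ± 17.1 at 9 dpf.

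The H2B row and hist2h2l differed least between 5 and 7 dpf. H2B pairs with H2A in the dimers that flank the H3-H4 tetramer. The row hist1h2ba (ENSDARG00000034203) had 106, 61.6 and 75.0 at 5 dpf, 50.1, 33.5 and 67.1 at 7 dpf, and 92.4, 117 and 74.0 at 9 dpf. Its 7 dpf libraries were below all 9 dpf libraries and overlapped with those at 5 dpf.

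The row hist2h2l (ENSDARG00000068996) had 139, 78.4 and 133 at 5 dpf, 102, 68.1 and 111 at 7 dpf, and 124, 124 and 100 at 9 dpf. Its ages overlapped throughout. Its mean at 7 dpf was 0.80 of that at 5 dpf, the ratio closest to 1 among the 8 rows.

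Set side by side, the ratio of the 7 dpf to the 5 dpf mean was 0.26 for HIST2H3A, 0.31 for hist2h3c and 0.33 for HIST2H3D. It was 0.43 for hist1h4l, 0.47 for HIST1H4K and 0.51 for HIST2H4A. It was 0.62 for hist1h2ba and 0.80 for hist2h2l. So the 3 H3 rows held the lowest ratios, the 3 H4 rows came next and the H2B and H2 rows were highest. This order is a description of 8 rows whose libraries are shared and whose reads may be shared too. Other histone rows, described below, did not keep it. The ratio was 0.47 for HIST3H3 and 0.40 for the H3 row si:dkey-23a13.21. Rows with a HIST1H4 name outside the 8 had 0.34 (HIST1H4I) to 0.45 (a HIST1H4H row).

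The ratio of the 9 dpf to the 7 dpf mean went from 1.24 for hist2h2l to 3.31 for HIST2H3A. It was 3.02 for hist2h3c, 2.79 for HIST2H3D, 2.07 for hist1h4l, 1.94 for HIST1H4K, 1.88 for hist1h2ba and 1.44 for HIST2H4A. At 9 dpf the means were between 0.74 and 1.17 of those at 5 dpf, and 7 of 8 were below 1.

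The count of rows without overlap follows from how they were picked and is read against the same count over all genes tested. Every 7 dpf library lay below every 5 dpf library in 4 of 8 rows, where 7.49% of the 24298 genes tested did so. Every 7 dpf library lay below every 9 dpf library in 6 of 8 rows, against 11.5% of all genes tested. Both held in 4 of 8 rows, against 1.65%. These 4 were the H3 rows and hist1h4l.

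**Figure D2:**
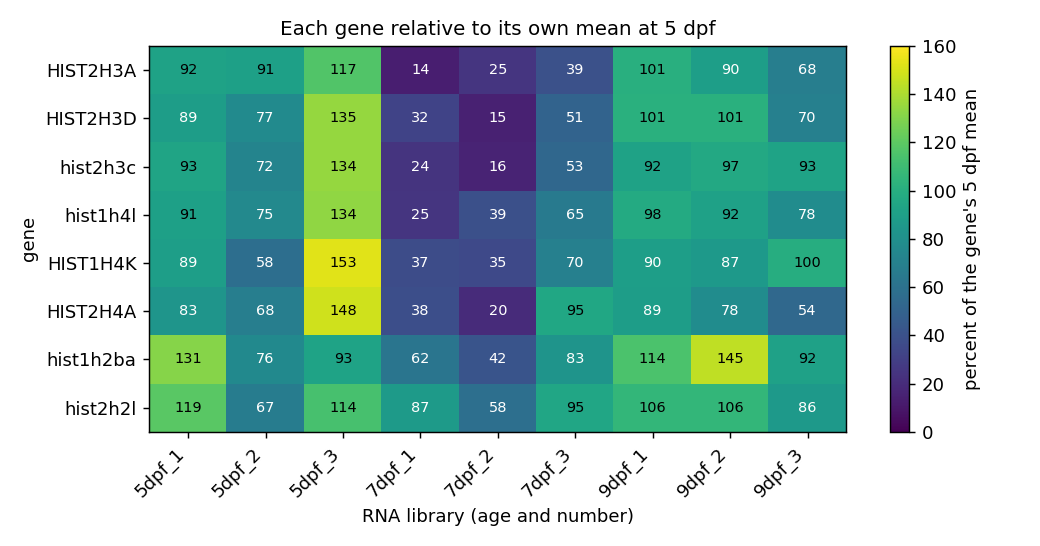
Each of the 8 histone rows (vertical) in each RNA library (horizontal), as a percent of the row's own mean at 5 dpf, printed in the cell and coded by colour. The columns 7dpf_1 and 7dpf_2 are the darkest in most rows, 7dpf_3 is the highest 7 dpf column in every row, and 5dpf_2 is the lowest of the 5 dpf columns in every row.

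The rows moved together between libraries of one age too. At 5 dpf, library 5dpf_2 was the lowest for 8 of 8 rows and 5dpf_3 the highest for 6. At 7 dpf, library 7dpf_3 was the highest for 8 of 8 rows and 7dpf_2 the lowest for 6. At 9 dpf, library 9dpf_3 was the lowest for 6. As RPM, that is, reads scaled by the library total alone, the ranks partly changed: 5dpf_2 was the lowest for 2 rows and 5dpf_1 for 5, 7dpf_3 was the highest for 7, and 9dpf_3 was the lowest for 5.

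Over the 9 libraries, Pearson's r of log2(value + 1) between pairs of rows was between 0.50 and 0.98 for 28 pairs, with a median of 0.85. The pairs with the lowest values included hist2h2l, and without it the lowest of 21 pairs was 0.73. With each age's mean taken out, the median over the 28 pairs was 0.72. The points share libraries, depth and possibly reads, so these values are given without a p.

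On the deposited scale, other RNAs without a poly(A) tail showed part of this spread, as did the sums of several other gene lists. The summed level of 373 rows of structured RNAs (signal recognition particle RNA, RNase P and MRP RNA, small nuclear RNAs and the like) was also lowest in 5dpf_2 within 5 dpf, with 533724 against 898086 and 1067130. It was lowest in 7dpf_2 with 737091 and highest in 7dpf_3 with 1206730, and one signal recognition particle row held 89.0% of it over all libraries. Its means were 832980 ± 272598 at 5 dpf, 972369 ± 234822 at 7 dpf and 854676 ± 138045 at 9 dpf, with overlapping ages. The 7 dpf mean was thus the highest, where that of the histone rows was the lowest. As RPM the sum was 93581, 81577 and 106885 at 5 dpf, and 93628, 81415 and 99485 at 7 dpf. At 9 dpf it was 75175, 72075 and 68772. On that scale 5 and 7 dpf overlapped and 9 dpf was lowest. Per 1000 of this sum, the histone rows had 0.73, 0.90 and 0.78 at 5 dpf, 0.29, 0.28 and 0.38 at 7 dpf, and 0.86, 0.66 and 0.67 at 9 dpf. On that scale, chosen after the data were seen, the 7 dpf libraries were again below all others.

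Scaling also mattered for the comparison of 9 with 5 dpf. As RPM, the 8 rows had 68.4, 73.1 and 83.3 at 5 dpf, 27.1, 22.6 and 37.6 at 7 dpf, and 64.6, 47.3 and 45.9 at 9 dpf. Here every 9 dpf library was below every 5 dpf library, with a log2 change of -0.52 in place of -0.06.

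Pancreatic markers moved with the same libraries within 5 and within 7 dpf. Their sum was 13006 in 5dpf_3 against 6044 and 3696 in the other 5 dpf libraries, and 23718 in 7dpf_3 against 12362 and 9762 in the other 7 dpf libraries. At 9 dpf it was 7863, 13327 and 8921, with 9dpf_1 the lowest. On the deposited scale, the same order within 5 and 7 dpf held for other sums. These were histone chaperones, DNA replication genes, histone 3' end processing genes and replacement variants, but not mitosis genes or the other marker lists. Within 5 dpf alone, liver markers had that order too, with 1618 in 5dpf_2, 2099 in 5dpf_1 and 5622 in 5dpf_3. So did skeletal muscle markers, with 1552, 2095 and 2421. Liver markers were also highest in 5dpf_3 as RPM, at 563 against 219 and 247. Liver means were 3113, 3080 and 1450 at 5, 7 and 9 dpf, and muscle means 2023, 2469 and 1208. As RPM, 5dpf_2 was instead the highest 5 dpf library for chaperones (1618), replication genes (1228) and processing genes (1343). The pancreatic sum kept its order as RPM. Within the pancreatic list the hormone genes ins and sst2 were at most 11.6 in every library, while another hormone gene, gcga, was at 104 to 173. The mean of the sum was highest at 7 dpf, where the histone rows were lowest. The part of pancreatic, liver or muscle tissue in the histone levels was not tested.

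Beside the 8 rows, 26 other rows carry a core histone name: 8 in the deposited table, 7 by the symbol of their gene ID and 11 by a RefSeq symbol or synonym. Of these, 25 had enough reads to be tested. Their level was lower at 7 dpf than at 5 dpf in 25 of 25 and higher at 9 dpf than at 7 dpf in 25 of 25, as fitted log2 changes. Of all 24298 genes tested, 12202 had a negative first change and 11738 a positive second change, and 22.5% had their lowest mean at 7 dpf. In the limma fit across all 24298 genes, 9 fell from 5 to 7 dpf at a Benjamini-Hochberg adjusted p under 0.05, where 1.43% of all genes tested did so. The number that rose in that step was 0, with 0 at an unadjusted p under 0.05 and 0 by edgeR and by DESeq2, against 2.63% of all genes.

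From 7 to 9 dpf, 4 of the 25 rows rose, against 1.5% of all genes tested, and 0 fell, against 0.383%. The 0 held at an unadjusted p under 0.05 and by edgeR and DESeq2. The median log2 change of the 25 rows was -1.17 for the first step and 1.08 for the second, beside -0.00 and -0.02 over all genes tested. Rows of the same histone type as the 8 may hold some of the same reads, which was not tested.

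The change in direction was tested as the difference between the second step and the first. It was positive and passed the test for 6 of the 25 rows, against 0.642% of all genes tested, and was negative for 0, against 0.362%, also at an unadjusted p under 0.05 and by edgeR and DESeq2. Between 5 and 9 dpf, the number of rows that rose was 0 and the number that fell was 0 in limma, where 12.6% and 4.28% of all genes did. At an unadjusted p under 0.05 the counts were 0 and 1, by edgeR 0 and 1, and by DESeq2 0 and 0.

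Among these rows, HIST1H4I (ENSDARG00000087472) is named as a histone H4 gene. It had 115, 84.9 and 125 normalized read counts at 5 dpf, 33.7, 26.2 and 52.0 at 7 dpf, and 84.3, 92.2 and 66.7 at 9 dpf. No 7 dpf library reached any library of another age. It fell from 5 to 7 dpf by 1.55 on the log2 scale (SE 0.24, limma adjusted p = 0.000498) and rose by 1.14 from 7 to 9 dpf (adjusted p = 0.0143).

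The row zgc:165551 (ENSDARG00000100024) counts as a histone row because its deposited name is tied to a histone symbol in RefSeq. It had 80.0, 79.3 and 123 at 5 dpf, 25.0, 20.9 and 49.1 at 7 dpf, and 80.2, 84.4 and 72.0 at 9 dpf. It fell by 1.60 (SE 0.26, limma adjusted p = 0.000955) and then rose by 1.38 (adjusted p = 0.00771). Another row of the same name (ENSDARG00000100279) passed in neither step (limma adjusted p = 0.0814 and 0.0811). The H3 row si:dkey-23a13.21 (ENSDARG00000105508), whose gene ID carries the symbol hist2h3ca1, had 47.7, 54.1 and 57.1 at 5 dpf, 17.3, 13.6 and 32.1 at 7 dpf, and 52.8, 54.9 and 41.7 at 9 dpf. It fell by 1.38 (SE 0.28, limma adjusted p = 0.00599) and rose by 1.29 (adjusted p = 0.0183). For HIST1H4I, zgc:165551 (ENSDARG00000100024) and si:dkey-23a13.21 the difference between 9 and 5 dpf did not pass the limma test, which used the deposited scale. Scaling mattered here too. As RPM, the 26 other histone rows summed to 114, 131 and 149 at 5 dpf and 102, 77.1 and 74.7 at 9 dpf. On that scale every 9 dpf library was below every 5 dpf library.

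The H4 row HIST1H4A (ENSDARG00000086555) fell by 1.46 (limma adjusted p = 0.00703) and rose by 1.25 (adjusted p = 0.0346). Another 4 rows named by size of change fell in the first step and did not pass in the second. These were zgc:163040 (ENSDARG00000101114), a second HIST1H4A row (ENSDARG00000105382) and 2 HIST1H4H rows (ENSDARG00000105318 and ENSDARG00000086614), with limma adjusted p-values between 0.0154 and 0.0185.

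Single libraries set how many rows passed. Without 7dpf_1 the number falling from 5 to 7 dpf was 4 and the number rising from 7 to 9 dpf was 0. Without 7dpf_3, the library with the highest histone levels at that age, they were 14 and 13. Counts over all genes also fell without 7dpf_1, as given in the last section, so these numbers do not measure the histone rows alone. Leaving out 5dpf_1, 5dpf_2 or 5dpf_3 gave 5, 14 and 4 falls, leaving out 7dpf_2 or 9dpf_2 gave 1 rise each, and leaving out 5dpf_2 or 5dpf_3 gave 7 and 8 rises. The 6 rows with a positive difference between steps became 12, 2, 3 and 15 without 5dpf_2, 7dpf_1, 7dpf_2 and 7dpf_3.

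**Figure D3:**
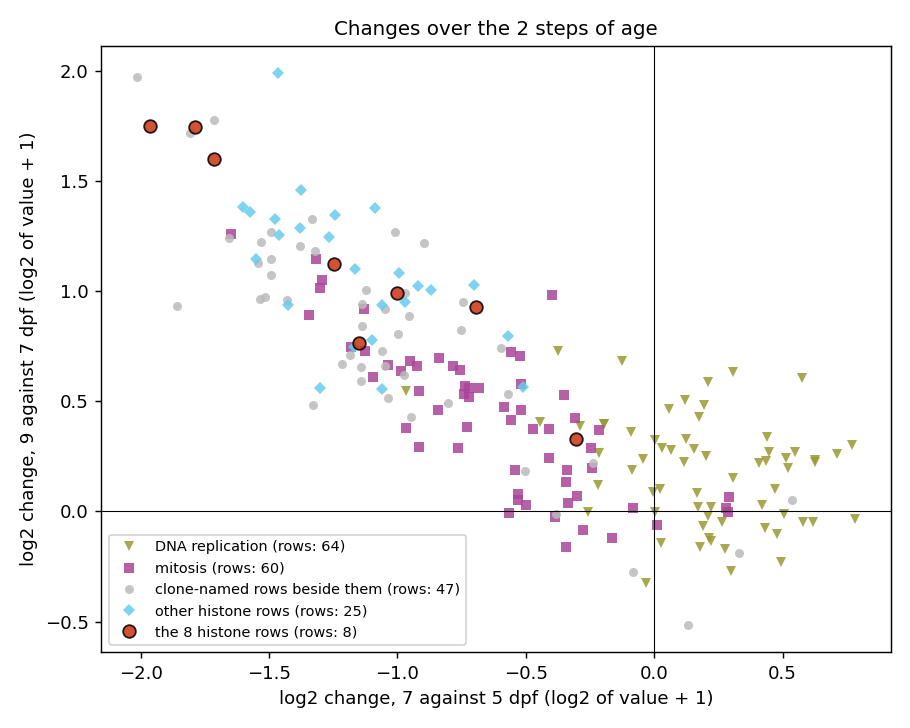
Fitted log2 change from 5 to 7 dpf (horizontal) against that from 7 to 9 dpf (vertical), on the log2(value + 1) scale, for the 8 histone rows, 25 other histone rows, 47 clone-named rows beside them, and genes of mitosis and of DNA replication that were tested. All 8 and all 25 histone rows sit at the upper left, with a negative first and a positive second change, and the mitosis genes lie mostly there with smaller changes. The 2 axes share the 7 dpf libraries, so a slope from upper left to lower right is built in.

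Position brought further rows into view. In the gene tables, HIST2H3A and HIST2H4A carry the clone names si:dkey-23a13.4 and si:dkey-23a13.15, and HIST1H4K carries si:ch73-368j24.4. In the RefSeq order of assembly GRCz12tu, hist1h4l sits among kif15, zgc:194989, hist1h2a10, histh1l3 and clone-named genes of si:dkey-108k21. The row hist2h3c sits beside h3c13a, zgc:165555 and other genes of that clone. The order places hist2h2l elsewhere, near hyou1, vps11 and ift46 and beside h2ax1, a gene of the H2A.X kind.

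A further 51 rows belong by name to the 5 clones that hold these genes or their neighbours, si:dkey-23a13, si:ch73-368j24, si:dkey-108k21, si:ch73-36p18 and si:ch73-261i21. Of these, 50 carry a clone name as deposited and 1 is named zgc:171759, and the gene IDs of 2 carry the histone symbols H3C15 and h2ax2 in the gene tables. This set was made after the values were seen and is described without a test. Of the 47 with enough reads, 42 had their lowest mean at 7 dpf, which 22.5% of all genes tested did. Their median log2 change was -1.12 from 5 to 7 dpf and 0.89 from 7 to 9 dpf. By clone, the lowest mean was at 7 dpf in 13 of 14 tested rows of si:dkey-108k21 and 11 of 11 of si:ch73-368j24. It was there in 5 of 5 tested rows of si:ch73-36p18 and 13 of 16 of si:dkey-23a13. The clone beside hist2h2l, si:ch73-261i21, had 1 tested row, and its lowest mean was not at 7 dpf. The neighbour of hist2h2l, h2ax1 (named zgc:101846 in the table), had 326, 184 and 368 at 5 dpf, 283, 225 and 374 at 7 dpf, and 353, 341 and 325 at 9 dpf, with overlapping ages like hist2h2l itself.

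Most replacement histone variants are made throughout the cell cycle from polyadenylated messages and are laid down outside S phase as well. Which form of message the H2A.X genes of this list gave here was not tested. Of 14 tested variant genes, 1 fell and 0 rose from 5 to 7 dpf in limma, against 1.43% and 2.63% of all genes, with 2 and 0 at an unadjusted p under 0.05 and the same 1 and 0 counts by edgeR and DESeq2. The one that fell was an H3.3 gene, h3f3b.1 (ENSDARG00000033009), from 632 ± 128 to 317 ± 62.7, by 0.99 on the log2 scale (adjusted p = 0.00895). At 9 dpf it had 374 ± 55.5. Without 5dpf_1 the fall did not pass (adjusted p = 0.0532). A second row of the same name (ENSDARG00000068436) had 547 ± 93.3 at 5 dpf, 627 ± 163 at 7 dpf and 887 ± 204 at 9 dpf.

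From 7 to 9 dpf, 1 of the 14 variants rose and 0 fell in limma, against 1.5% and 0.383% of all genes tested. At an unadjusted p under 0.05 the counts were 4 and 1, by edgeR 2 and 0, and by DESeq2 1 and 0. The one that rose in limma was the H2A.X gene h2afx, whose protein is phosphorylated at DNA breaks. It rose by 1.03 on the log2 scale (limma adjusted p = 0.0349). Its means were 99.1 ± 28.4 at 5 dpf, 58.0 ± 23.2 at 7 dpf and 115 ± 21.7 at 9 dpf. It did not pass when any one of the 7dpf_1, 7dpf_2 or 9 dpf libraries was left out, with adjusted p-values up to 0.201. The H2A.Z family genes h2afva and h2afvb followed another course and rose from 5 to 9 dpf by 0.94 each (limma adjusted p = 0.00276 and 0.0126), but h2afvb did not pass without 5dpf_2 or 9dpf_2. The summed level of the 15 variants had means of 5095, 4983 and 5376 at 5, 7 and 9 dpf, with SDs of 1381, 1338 and 843. The 7 dpf mean was the lowest, by less than these SDs. As RPM the sum was 604, 536 and 600 at 5 dpf, 449, 423 and 532 at 7 dpf, and 435, 423 and 503 at 9 dpf. On that scale every 7 dpf library was below every 5 dpf library.

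The list of histone transcription and 3' end formation holds genes that switch on or cut histone messages. It also holds genes of general RNA processing or decay, such as prpf8 and upf1, and the metabolic gene coasy. Of 35 tested, 0 rose and 0 fell from 5 to 7 dpf in limma, 7 and 1 at an unadjusted p under 0.05, and 0 and 0 by edgeR and by DESeq2, where 2.63% of all genes rose and 1.43% fell. The stem-loop binding protein gene slbp, named for its role, had 85.1, 76.5 and 94.5 at 5 dpf, 77.7, 64.9 and 138 at 7 dpf, and 132, 133 and 105 at 9 dpf. The transcriptional co-activator of histone genes, npat, had means of 160 ± 29.9, 215 ± 20.6 and 234 ± 25.9. Library 7dpf_3 was the highest of its age for slbp, as it was for the histone rows.

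From 7 to 9 dpf, 3 of these 35 genes rose and 0 fell in limma, against 1.5% and 0.383% of all genes tested. At an unadjusted p under 0.05 the counts were 11 and 1, by edgeR 3 and 0, and by DESeq2 5 and 0. The 3 in limma were snrpe, snrpg and clp1, with log2 changes of 1.20, 0.98 and 0.75. Their limma adjusted p-values were 0.00303, 0.0131 and 0.0469. The 3 became 1 without 7dpf_1, 9dpf_2 or 9dpf_3, and 6 without 7dpf_3. From 5 to 9 dpf, 15 of these 35 genes rose in limma, against 12.6% of all genes tested, and 8 with quantile scaling. They included the Sm protein genes snrpg, snrpe and snrpf, whose products form the ring of both spliceosomal and U7 particles, with log2 changes of 1.47, 1.22 and 1.19. They also included cpsf3, the endonuclease that makes the histone cut, with 0.94 (limma adjusted p = 0.00303). Among the 15 were prpf8, eri1 and coasy too (limma adjusted p = 0.0302, 0.0244 and 0.0391), so not all of them make histone messages. Without 9dpf_2 the 15 became 6, without 5dpf_2 they became 7, and without 5dpf_1 or 9dpf_3 they became 9. As RPM the sum of this list was 1165, 1343 and 1223 at 5 dpf and 1381, 1228 and 1278 at 9 dpf, with overlapping ages.

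Of 64 DNA replication genes tested, 2 rose and 1 fell from 5 to 7 dpf in limma, shares near the 2.63% and 1.43% of all genes. At an unadjusted p under 0.05 the counts were 17 and 2, and by edgeR and by DESeq2 2 and 1. The median log2 change of the 64 genes was 0.20, where that of the 8 histone rows was -1.20. The helicase subunit mcm7 went from 281 ± 71.0 to 484 ± 127 (log2 change 0.78, limma adjusted p = 0.0468). The licensing factor cdt1 went from 67.4 ± 9.44 to 116 ± 21.6 (0.77, adjusted p = 0.0245). The one that fell was ccna2, the cyclin that drives S phase and entry into mitosis, from 87.7 ± 12.96 to 44.98 ± 11.9 (-0.97, adjusted p = 0.0207).

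From 7 to 9 dpf, 0 of the 64 replication genes rose and 0 fell in limma, shares near the 1.5% and 0.383% of all genes tested. At an unadjusted p under 0.05, 12 rose and 0 fell, and 0 passed by edgeR or DESeq2. When 7dpf_3 was left out, 5 rose in limma. The clamp pcna had 524 ± 156, 657 ± 245 and 976 ± 101 at 5, 7 and 9 dpf and rose from 5 to 9 dpf (log2 change 0.94, limma adjusted p = 0.0159), though not when 5dpf_2 or 9dpf_2 was left out. The licensing inhibitor gmnn and dbf4, the activator of a replication kinase, rose over the same span by 1.18 and 0.97. In all 17 of 64 rose from 5 to 9 dpf, against 12.6% of all genes tested. This was 3 when 9dpf_2 was left out and 9 when 5dpf_2 was. As RPM the summed replication genes had 962, 1228 and 998 at 5 dpf and 1233, 982 and 1045 at 9 dpf, with overlapping ages. In the first step, the 2 rises became 0 without 5dpf_1, 7dpf_1 or 7dpf_3, 1 without 5dpf_3, 9dpf_2 or 9dpf_3, and 7 without 7dpf_2, and the fall of ccna2 did not pass without 5dpf_2 or 7dpf_1.

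Many mitosis genes were lowest at 7 dpf, like the histone rows. Of 60 tested, 20 fell from 5 to 7 dpf in limma and 0 rose, against 1.43% and 2.63% of all genes, with 39 and 0 at an unadjusted p under 0.05, 22 and 0 by edgeR, and 19 and 0 by DESeq2. From 7 to 9 dpf, 6 rose and 0 fell, against 1.5% and 0.383%, the 0 also at an unadjusted p under 0.05 and by edgeR and DESeq2. Every 7 dpf library lay below all libraries of both other ages for 26 of the 60, against 1.65% of all genes tested. The median log2 change was -0.56 for the first step, smaller than the -1.20 of the 8 histone rows, and 0.44 for the second, where theirs was 1.06. The mitosis genes were listed with earlier results of these data known.

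The proliferation marker mki67 had 402, 332 and 341 at 5 dpf, 147, 123 and 166 at 7 dpf, and 274, 334 and 273 at 9 dpf. It fell by 1.30 (limma adjusted p = 0.000191) and rose by 1.02 (adjusted p = 0.00496), and no 7 dpf library reached another age. The mitotic kinase cdk1 fell by 1.65 from 70.8 ± 8.06 to 23.4 ± 10.1 (limma adjusted p = 0.00125) and rose to 54.2 ± 8.99 at 9 dpf (adjusted p = 0.0197). The kinetochore gene cenpf and the anaphase ubiquitin enzyme ube2c fell by 1.35 and 1.32. The 20 falls became 11 without 5dpf_1 and 10 without 7dpf_1. The 6 rises became 1, 3 and 2 without 7dpf_1, 9dpf_2 and 9dpf_3, and 10 and 11 without 5dpf_2 and 7dpf_3.

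On the deposited scale, libraries of one age differed less for mitosis genes than for histone rows at 5 and 7 dpf. Summed over the 60 mitosis genes, the libraries had 6451, 6811 and 6906 at 5 dpf and 4215, 4489 and 4759 at 7 dpf. Over the same libraries the histone rows went from 478 to 831 and from 204 to 456. As RPM the order was the other way at 5 dpf, with 672 to 1041 for the mitosis genes and 68.4 to 83.3 for the histone rows. The mitosis sum as RPM was 406, 496 and 392 at 7 dpf and 613, 398 and 480 at 9 dpf, so these 2 ages overlapped. For each 100 of the mitosis sum the histone rows had 10.2, 7.03 and 12.04 at 5 dpf, 6.69, 4.55 and 9.59 at 7 dpf, and 10.5, 11.9 and 9.56 at 9 dpf. On this scale library 7dpf_3 overlapped with the other ages.

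**Figure D4:**
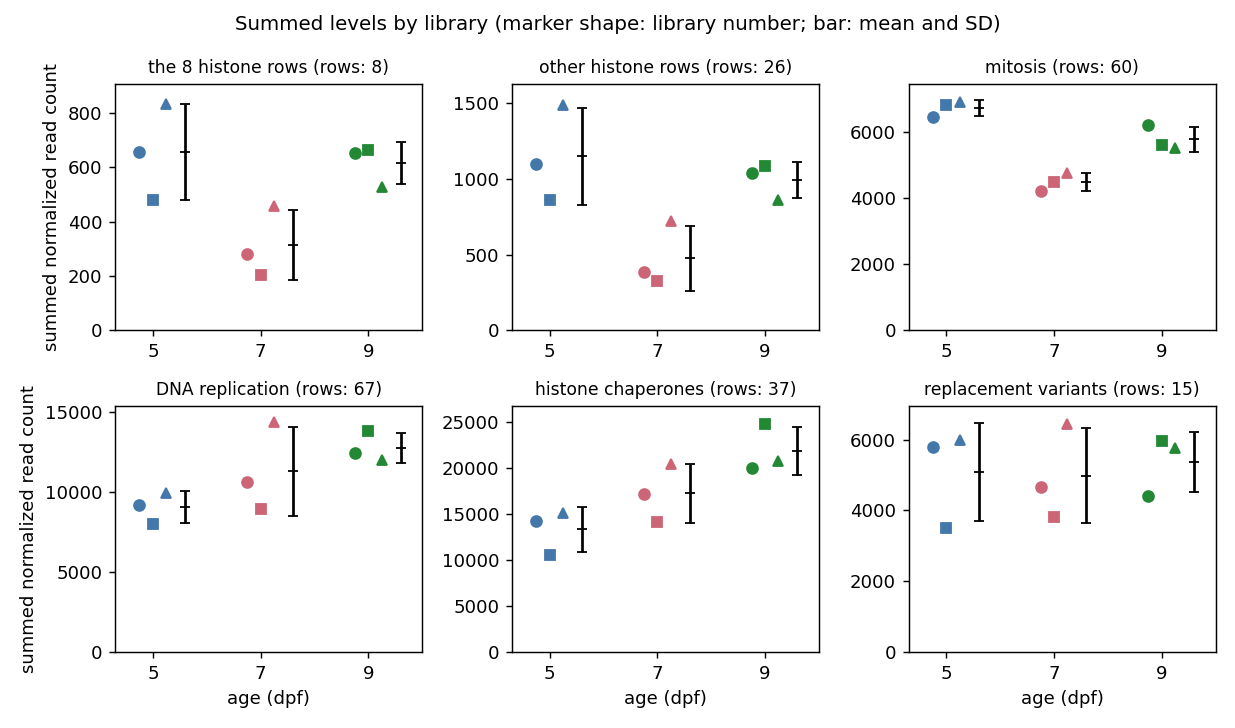
Summed normalized read count (vertical axes, starting at 0) of 6 gene lists against age in dpf, one point per library shaped by library number, with the mean and SD over 3 libraries in black. On this scale the 8 histone rows, the other histone rows and the mitosis genes are lowest at 7 dpf, while DNA replication genes and histone chaperones have their highest means at 9 dpf.

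Histone chaperones and import factors, which carry new histones to the nucleus and onto DNA, are described next. Of 37 tested, 1 rose from 5 to 7 dpf and 0 fell in limma, against 2.63% and 1.43% of all genes, with 9 and 0 at an unadjusted p under 0.05 and 1 and 0 by edgeR and DESeq2. The one that rose was daxx, a chaperone of H3.3, from 150 ± 18.0 to 277 ± 37.1 (log2 change 0.88, limma adjusted p = 0.00617). It did not pass without 7dpf_1 (adjusted p = 0.0503), while 6 and 3 genes rose without 7dpf_2 and 5dpf_3. From 7 to 9 dpf, 1 of the 37 rose and 0 fell in limma, against 1.5% and 0.383% of all genes tested. By edgeR the counts were 6 and 0, and by DESeq2 5 and 0. The gene that rose in limma was setb (log2 change 0.97, limma adjusted p = 0.0346). This rise did not pass without 7dpf_1, 7dpf_2, 9dpf_2 or 9dpf_3. From 5 to 9 dpf 20 of the 37 rose, against 12.6% of all genes tested, led by npm1a (1.49), nap1l4a (1.36), setb (1.25) and anp32e (1.03), with limma adjusted p-values of at most 0.00151. Leaving out 9dpf_2, 5dpf_2 or 9dpf_3 left 10, 11 and 12.

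The 10 genes whose log2 level was most like that of the histone sum over the 9 libraries had Pearson's r between 0.97 and 0.99. In order they were FP236812.1, si:ch73-36p18.3, si:dkey-108k21.12, si:ch1073-159d7.4, si:dkey-23a13.22, zgc:173552, si:dkey-261m9.6, zgc:163061, si:dkey-261m9.9 and cd44a. Of these, 9 carry clone, accession or project names only, and 3 belong to the clones named above. Another, si:ch1073-159d7.4, shares its clone name with si:ch1073-159d7.9, which is among the other histone rows. Whether rows without a histone name are histone copies, or share reads with the histone rows, was not tested. The highest, FP236812.1, had means of 61.9 ± 23.1, 20.9 ± 15.2 and 49.1 ± 10.9 at 5, 7 and 9 dpf.

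Genes outside the histone lists with a symbol of their own were a set picked after the values were seen. The closest of them were cd44a, a hyaluronan receptor, mcamb, a cell adhesion molecule, and cks2, a partner of cyclin-dependent kinases. They were followed by iqgap1, cnpy2, hmgn2, b4galt6, smc2, ncapg and nup35, with r between 0.946 and 0.97. The proteins Smc2 and Ncapg are subunits of condensin, which compacts chromosomes for mitosis. The chromatin protein gene hmgn2 had 688 ± 188, 382 ± 137 and 731 ± 73.5. The values of r describe 9 libraries that fall into 3 ages and are given without a p.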

How the data were processed

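RNA from pools of 10 zebrafish intestines was sequenced in 3 libraries at each of 5, 7 and 9 dpf. Per the submitters' processing notes, the tools named include STAR 2.5.2b and DESeq2 1.16.1 with genome build GRCz10, and how multiply mapped reads were counted is not given in the sources used here. The deposited table holds a normalized signal per gene, that is, read counts divided by 1 size factor per library: 100.0% of values gave whole reads within a tolerance of 1e-06 of a read. Library totals of 7014333 to 14327144 reads set the precision, and the floor of 3 reads was 2.56 to 3.87 normalized counts.

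The main test was limma 3.58.1 (R 4.3.3) with a mean-variance trend and robust variances on log2(value + 1), a scale that understates the change of low genes. All 9 libraries entered 1 fit, for the 24298 of 30263 genes that reached 10 normalized counts in 3 libraries or more. P-values were adjusted by Benjamini-Hochberg over all genes tested, with a threshold of 0.05. Shares of all genes are those of limma at this threshold. Counts at an unadjusted p, by edgeR or by DESeq2 have no share of their own here, and the limma shares do not apply to them. The script was tested on simulated data. Alternatives were pseudocounts of 0.5 and 5, no filter, quantile, cyclic loess and TMM scaling, edgeR 4.0.16 and DESeq2 1.42.0 on the recovered whole reads, the library number as a block, and leaving out each library. The labels do not say whether pools came from separate clutches, so p-values measure only the spread between these pools.

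The 8 rows, the other lists and their rules were chosen with earlier results of these data known. Named genes were the 8 rows and up to 8 other histone rows that passed, by largest change. Up to 4 genes per list and contrast were named by largest change among those that passed. The 10 tested genes most like the histone sum were named too, with the histone lists and rows named only by a gene ID left out. Of the 30263 gene IDs, 26065 matched a symbol table, as did 5 of the 8 rows. The 15 peak lists for H3K4me3, H3K27me3 and input, called with MACS2 2.1.1 after BWA 0.7.15 per the submitters' processing notes, were not analysed here.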

Additional observations from a re-analysis of the deposited data

How the results depend on the processing

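The summed histone level kept its direction in both steps under every scaling tried and without any one library, with log2 changes of -1.41 to -0.83 from 5 to 7 dpf and 0.77 to 1.35 from 7 to 9 dpf when libraries were left out. From 5 to 9 dpf the sum moved to -0.52 as RPM of the library total, and went from -0.27 to 0.13 when libraries were left out. For single rows, 184 of 192 recomputed log2 ratios moved by less than the spread between libraries, and the 8 that moved further were all on the RPM scale.

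Counts over all genes depended more on the processing, and the cause was not tested. The counts of single gene lists with a library left out were not set against the share of all genes called in the same fit. From 5 to 7 dpf the 985 genes called became 2275 by quantile and 2089 by cyclic loess scaling, and 315 to 1528 without one library (7dpf_1 and 7dpf_2 respectively). From 7 to 9 dpf the 458 became 1552 by quantile scaling, 2044 by cyclic loess, 790 by edgeR and 868 by DESeq2, and 101 to 1001 without one library (7dpf_1 and 5dpf_2). From 5 to 9 dpf the 4094 became 1820 to 4722 (without 9dpf_2 and 7dpf_2). For the difference between steps, the 244 became 802 by quantile scaling, 850 by cyclic loess and 383 by DESeq2, and 54 to 437 without one library (7dpf_1 and 5dpf_2).

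Of the other histone rows, the 9 that fell from 5 to 7 dpf became 5 by cyclic loess and 4 to 14 without one library, and the 4 that rose from 7 to 9 dpf became 0 to 13. The 6 with a positive difference between steps became 10 with TMM factors, 10 by DESeq2 and 2 to 15 without one library. Those that fell from 5 to 9 dpf numbered 1 by edgeR and 0 to 1 without one library, where limma called 0. Over 1569 recomputed changes of named genes, 1413 kept their side of the threshold, 101 lost it, 55 gained it and 0 turned direction.

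Libraries with the same number did not deviate together, with correlations of -0.42 to 0.47 between their deviations from the age means, and 1 of 9 libraries correlated best with its own number. With the library number as a block, the replicate block gave 790 genes from 7 to 9 dpf and 410 for the difference between steps, and 14, 10 and 13 other histone rows for the fall, the rise and the difference. The planned reading of histone mark peaks at the histone genes was not run. Depth limits the rows to 8 to 179 reads per library.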
